A study of Mus musculus with 10 samples.

Results

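Histones are the proteins around which nuclear DNA is wound, and the clustered histone genes supply most of them while a cell copies its DNA. H2A, H2B, H3 and H4 form the core of the nucleosome, and H1 binds the linker DNA between nucleosomes. Unlike other mRNAs, most mRNAs of the clustered genes carry no poly(A) tail but end in a short stem-loop that is bound by the protein SLBP, and they are made mainly during S phase. Replacement histones, encoded elsewhere, are polyadenylated and are made throughout the cell cycle. Cardiomyocytes largely leave the cell cycle soon after birth, whereas endothelial cells, fibroblasts and blood cells of the heart can still divide.

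The clustered histone genes were taken as every row whose symbol begins with Hist1h, Hist2h, Hist3h or Hist4h, which gave 69 of the 24537 genes counted. They were chosen because many of them differ between the 2 litters of the study, so their litter differences describe how they were selected and were not tested. Of the 69 rows, 6 are named for H1, 19 for H2A, 19 for H2B, 12 for H3 and 13 for H4, among them the pseudogenes Hist1h2al and Hist3h2bb-ps. By symbol, 55 belong to Hist1, 10 to Hist2, 3 to Hist3 and 1 to Hist4. Of these, 67 rows had at least 10 counts summed over all mice and were fitted, while the testis genes Hist1h2aa (0 counts in every library) and Hist1h2ba (at most 1.41 normalized counts in a library) were not.

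Heart RNA was sequenced from 10 mice at 6 weeks of age. The 5 controls were Rosa26-rtTA2+/-;TRE-SOD2-shRNA-/-. The 5 iSOD2 mice were Rosa26-rtTA2+/-;TRE-SOD2-shRNA+/- and thus carried a doxycycline-inducible short hairpin RNA against Sod2, the mitochondrial superoxide dismutase. All dams had received doxycycline chow during pregnancy only, so both groups carried rtTA and had been exposed to doxycycline before birth, and the knockdown driven from Rosa26 was not restricted to the heart. Mothers were wild-type C57BL/6J. Litter A held controls 1 and 2 and iSOD2 7 (males) and iSOD2 8 (female), and litter B held control 3 and iSOD2 9 (males) and controls 4 and 6 and iSOD2 5 and 10 (females). Each library was 1 mouse.

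Libraries held between 16448090 and 24263085 counts over genes, and the clustered histone genes took between 0.0457% and 0.100% of them. Sod2 ranged from 9561 to 11019 normalized counts in controls and from 10117 to 11306 in iSOD2 hearts, with a log2 difference of 0.03 ± 0.05 (SE; DESeq2 adjusted p = 0.806), in mice whose knockdown had been limited to gestation. The ventricular genes Myh6, Myl2, Tnnt2, Actc1, Ryr2 and Pln summed to between 1617134 and 1780561 normalized counts in litter A and between 1434966 and 1575591 in litter B, with every litter A heart above every litter B heart and 0 of the 6 called between litters. The part of this difference in the histone values was not tested. In whole hearts, fewer cells of a type and less RNA per cell cannot be told apart.

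Most of the set lay in 2 blocks of the GRCm38 (mm10) genome. The Hist1 rows, except for the pseudogene Hist1h2al, spanned chr13:21715713-23934913. The Hist2 rows spanned chr3:96219916-96270192. The 3 Hist3 rows lay on chromosome 11 and Hist4h4 on chromosome 6. Exon lengths ran from 356 to 2982 bp with a median of 477 bp, against 2645.5 bp for all genes fitted. The rows were not all separate genes in the data. In 5 pairs the rows overlapped (Hist1h2ao with Hist1h2ap, Hist1h4m with Hist1h4n, Hist1h2bq with Hist1h2br, Hist2h3c1 with Hist2h3c2 and Hist2h2aa1 with Hist2h2aa2) and held nearly the same counts, so 64 separate intervals were summed. In the pairs Hist1h2ao/Hist1h2ap and Hist2h3c1/Hist2h3c2 the deposited strands were opposite, so strand did not separate these counts. In each pair 1 row (Hist1h2ap, Hist1h4n, Hist1h2bq, Hist2h3c1 and Hist2h2aa1) had its RefSeq place elsewhere in the same block, so its value is that of its partner's locus. In addition, 51 of 69 members shared over 50% of the 50-base words of their coding sequence with another member (median 72.6% over members), and the level of a single copy is uncertain to that extent.

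Given that the stem-loop sets these mRNAs apart, the annotated transcripts were searched for it. In GENCODE transcripts, 46 of 69 members held a 16-base hairpin of 6 paired bases on each side of a 4-base loop, which began between 21 and 58 bases (median 31) past the stop codon. A further 17 had fewer than 20 annotated bases past the stop codon and could not show one, and 6 had a longer annotated end without it. Only stems beginning GG whose 6 pairs all matched were searched for, so other forms would have been missed. The hairpins took 8 forms, shown here because they differ by histone class and mark where the counted rows end; capitals are the paired bases of the stem. The first 3 lines are the most frequent form, that form as found in H4, and the most frequent form with another loop.
Hist1h2bm: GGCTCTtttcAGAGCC
Hist1h4h: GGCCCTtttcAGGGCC
Hist1h2bk: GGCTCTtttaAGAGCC
Hist1h4i: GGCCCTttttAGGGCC
Hist1h4j: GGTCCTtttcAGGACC
Hist1h4a: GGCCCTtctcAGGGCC
Hist1h3g: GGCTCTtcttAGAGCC
Hist2h2ac: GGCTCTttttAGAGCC
The form of Hist1h2bm was found in 26 members of H1, H2A, H2B and H3, that of Hist1h4h in 7 members, and that of Hist1h2bk in 6. Those of Hist1h4i and Hist1h4j were found in 2 members each and the last 3 in 1 each. Stems beginning GGCTC occurred in H1, H2A, H2B and H3 members, and every hairpin found in an H4 member began GGCCC or GGTCC. The hairpin of Hist1h2bm lay at chr13:21722506-21722521 and that of Hist1h4h at chr13:23531458-23531473, both on the plus strand. In all 41 members whose hairpin lay inside the counted row, the row ended between 4 and 8 bases (median 5) beyond it, so reads from any longer transcript end lay outside these rows.

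The level of the set was carried by a few genes. Per kilobase of exon, the mean over all mice of the fitted members ran from 2.01 normalized counts for the testis linker histone Hist1h1t to 3153 for Hist1h4h, an H4 gene, with H4 also holding Hist1h4d (2746) and Hist1h4c (1999.98). The highest H1 gene was Hist1h1c (1668 per kilobase), the highest H2A row Hist2h2aa1 (1600.04), the highest H2B gene Hist1h2bc (661) and the highest H3 gene Hist1h3e (419). The 8 rows with the most counts (Hist1h4h, Hist1h1c, Hist1h1e, Hist1h4d, Hist2h2aa1, Hist2h2aa2, Hist1h4c and Hist1h2bc) formed 7 separate intervals and are called the abundant intervals here. They held 7527, 7199, 6545 and 6577 normalized counts in litter A (controls 1 and 2, then iSOD2 7 and 8). In litter B they held 8713, 6177, 6656, 4979.98, 6493 and 6487 (controls 3, 4 and 6, then iSOD2 5, 9 and 10). The 2 litters thus overlapped, with the highest and the lowest heart both in litter B.

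Unlike the abundant intervals, the other 57 separated most hearts by litter. They summed to 5149.96, 5439.6, 4656 and 4454 normalized counts in litter A, in the same order of mice, and to 11946, 7464, 6686, 4390.1, 7476 and 7372 in litter B. Apart from iSOD2 5, which was below them all, every litter B heart was above every litter A heart. Litter means were 4925 ± 451 (SD, n = 4) in A and 7556 ± 2453 (SD, n = 6) in B, a log2 difference of 0.62, against −0.08 for the abundant intervals (6962 ± 482 and 6584 ± 1208). Without iSOD2 5 the difference of the 57 intervals was 0.73, without control 3 it was 0.44, and among males alone it was 0.93, since litter A held mostly males and litter B mostly females. Litter B had 2 males, and with iSOD2 9 as its only male the difference was 0.56. All 64 intervals together differed by 0.25, or by 0.11 without control 3.

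**Figure D1:**
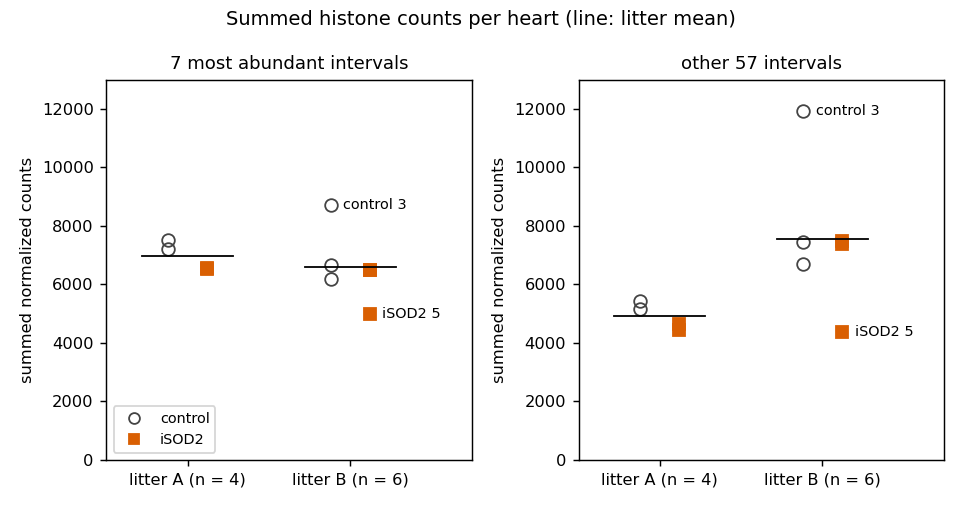
Summed normalized counts (vertical axes, starting at 0) of the 7 abundant intervals and of the other 57 intervals in each heart, by litter (horizontal axis); open circles are controls, filled squares iSOD2 mice and lines litter means. The abundant intervals overlap between litters, whereas for the other 57 all litter B hearts except iSOD2 5 lie above the 4 litter A hearts.

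Across the 67 fitted members, the median log2 difference of litter B over litter A was 0.79, against −0.00 for all genes fitted, and 58 were higher in litter B. Of these differences, 29 were above 1, 18 between 0.5 and 1, 3 between 0.25 and 0.5, 15 within 0.25 of zero and 2 below −0.25. In the DESeq2 fit with genotype as covariate, 33 of 66 members were called higher in litter B (adjusted p ≤ 0.05 and a log2 difference over 0.25), where 2.52% of all genes were. The count called lower was 0, where 0.977% of all genes were. Nothing is read from these counts, since the set was picked on this contrast. In 9 of 67 members every litter B heart was above every litter A heart (2.25% of all genes), and without iSOD2 5 in 45 of 67 (3.87% of all genes). Nor is anything read from those.

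**Figure D2:**
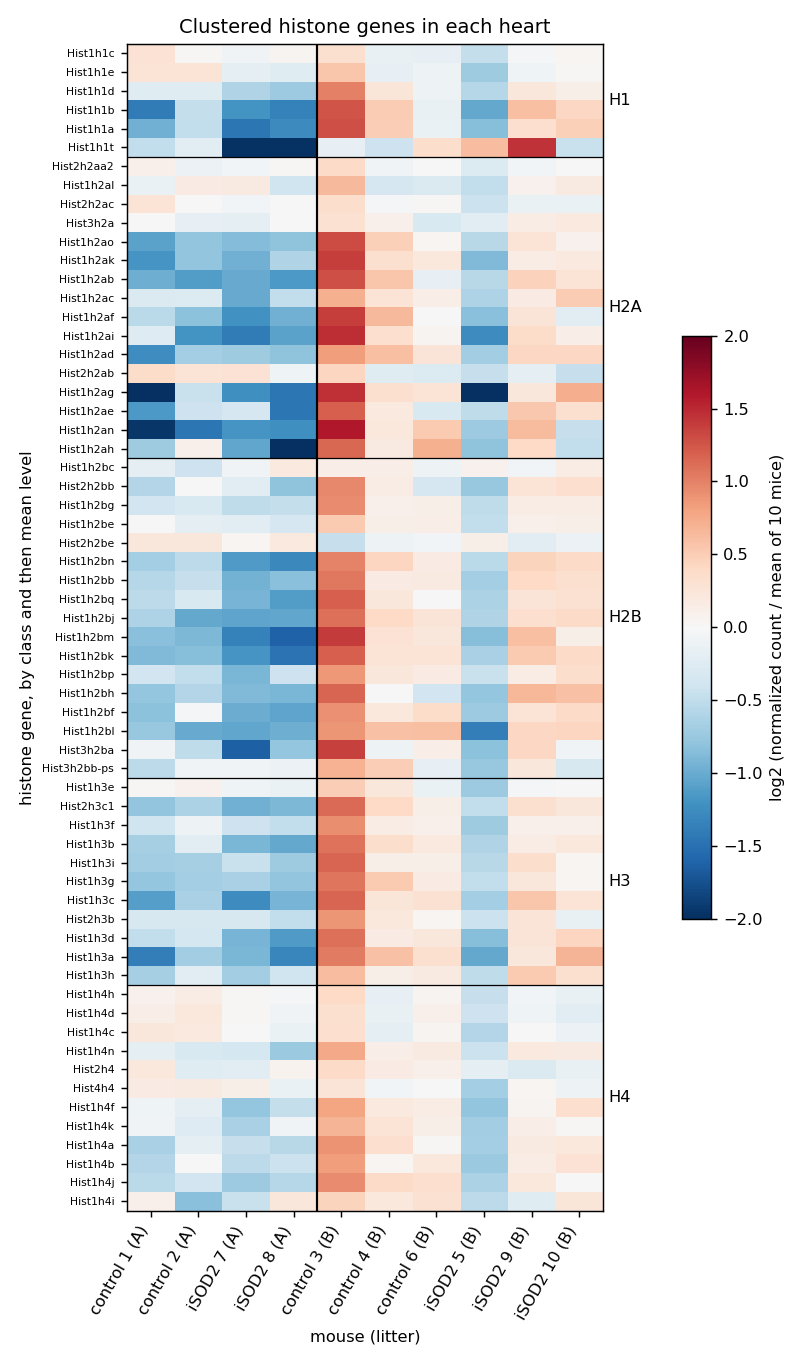
Log2 ratio of each heart's normalized count to the mean of the 10 hearts (color; 0.5 added to both) for the 62 fitted intervals, in rows by histone class and then falling mean level, with hearts in columns and a vertical line between litters A and B. Control 3 is the highest heart in 59 rows, and in most rows the litter A hearts and iSOD2 5 share the blue side.

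The difference between litters was graded by level. For intervals with a mean over 500 normalized counts the median log2 difference was −0.12 (6 intervals), for 250 to 500 it was 0.56 (7), for 100 to 250 it was 0.89 (19), for 50 to 100 it was 1.05 (15) and for fewer than 50 it was 1.13 (15). Class and cluster also varied. Median log2 differences were 1.05 in H1, 1.15 in H2A, 1.0 in H2B and in H3, and 0.36 in H4. They were 1.01 in Hist1 and 0.02 in Hist2, with 0.20 over the 3 Hist3 members and −0.16 for Hist4h4. Within Hist2 the differences ran from −0.41 (Hist2h2ab) to 1.16 (the H3 member Hist2h3c2). Members over 50% shared with another copy had a median of 0.99 (51 members) and the rest one of 0.17 (16 members). By transcript form, the median was 0.62 for 23 members whose annotated transcript ran 100 bases or more past the hairpin, 1.01 for 23 whose transcript ended sooner and 1.02 for 21 with no hairpin in the annotation. These features overlap among themselves, and they were not separated.

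**Figure D3:**
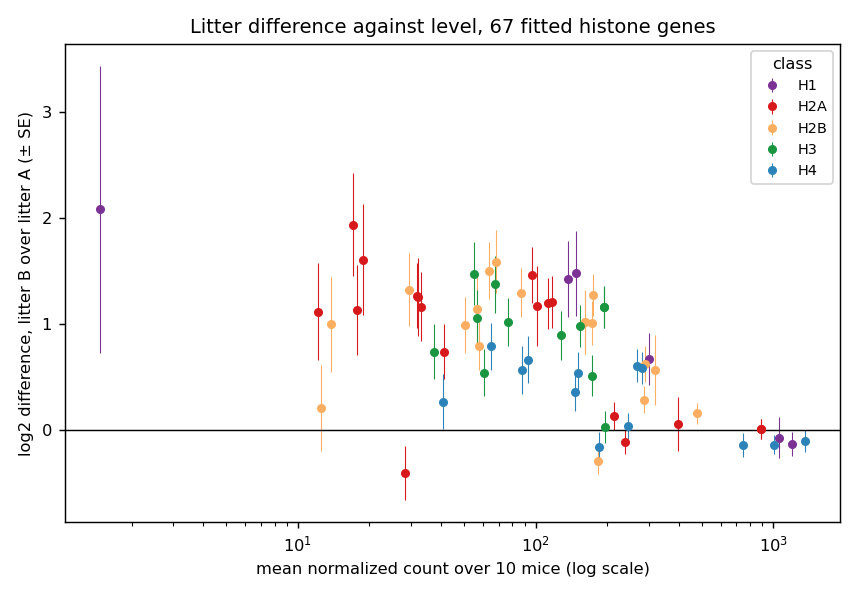
Log2 difference of litter B over litter A (vertical axis, ± SE from the fit with genotype) against mean normalized count over the 10 hearts (horizontal axis, log scale) for the 67 fitted members, colored by histone class. Members over 500 normalized counts lie near zero and most members below 250 lie above zero.

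Among the linker histones, the gap between members was wide. Hist1h1b (H1.5, chr13:21779832-21780625) held 55.6, 106, 63.7 and 57.3 normalized counts in litter A (controls 1 and 2, then iSOD2 7 and 8), and 72.2, 204 and 354 (lowest, median and highest) in litter B. Its log2 difference was 1.48 ± 0.40 (SE). Control 2 and iSOD2 5 made the 2 litters overlap. By contrast, Hist1h1c (H1.2, chr13:23738807-23739531) held 1467, 1219.9, 1151 and 1254 in litter A and 868, 1132 and 1510.3 (lowest, median and highest) in litter B, a log2 difference of -0.14 ± 0.11 (SE). Hist1h1e (H1.4) was close to it, at -0.08 ± 0.19 (SE). The members with the lowest counts carried the widest errors, as in Hist1h1t, which had at most 4.89 normalized counts in a heart and a log2 difference of 2.09 ± 1.36 (SE); this gene was picked with its values known.

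In the H2A and H2B classes, which pair to form the dimer of the nucleosome, the largest differences among members averaging 20 or more normalized counts were those of Hist1h2bm, Hist1h2bk and Hist1h2ab. Below that level, Hist1h2an (1.94 ± 0.49 (SE)) and Hist1h2ag (1.61 ± 0.53 (SE)), picked with their values known, had larger ones. Hist1h2bm (chr13:21722044-21722526) held 38.0, 36.4, 26.4 and 22.0 normalized counts in litter A and 181, 83.5, 80.4, 37.6, 104 and 74.0 in litter B (controls 3, 4 and 6, then iSOD2 5, 9 and 10), a log2 difference of 1.59 ± 0.30 (SE). Only iSOD2 5 lay within the litter A values. Hist1h2bk (chr13:22035821-22036320) held 34.4, 35.2, 28.0 and 22.5 in litter A and 147, 77.0, 76.9, 40.5, 92.0 and 83.4 in litter B, a log2 difference of 1.50 ± 0.27 (SE), with no overlap. Hist1h2ab (chr13:23751088-23751592) held 48.4, 44.2, 47.7 and 43.2 in litter A and 237, 142, 85.5, 65.4, 132 and 116 in litter B, a log2 difference of 1.46 ± 0.26 (SE), again with no overlap. Here too iSOD2 5 was the lowest litter B heart.

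Most Hist2 members of these classes did not share that pattern. The exception was the H2B gene Hist2h2bb, picked with its values known, at a log2 difference of 0.56 and 318 normalized counts on average. Hist2h2aa2 (chr3:96239779-96240374), whose row covers that of Hist2h2aa1, held 948, 815, 855 and 902 normalized counts in litter A and 730.00, 864 and 1149 (lowest, median and highest) in litter B, a log2 difference of 0.01 ± 0.10 (SE) (0.01 ± 0.10 (SE) for Hist2h2aa1). Hist2h2be (chr3:96221072-96223738), whose annotated transcript has a long end past the stop codon and no hairpin, held 214, 214, 188 and 209.9 in litter A and 132, 170.4, 176, 198, 158 and 169 in litter B, a log2 difference of -0.30 ± 0.12 (SE). Its control 3 heart was the lowest of all, the reverse of most members. Hist2h2ab was lower still in litter B by its log2 difference, -0.41 ± 0.26 (SE), at 28.2 normalized counts on average. Hist1h2bc, another H2B gene with an annotated long end and no hairpin, had 0.16 ± 0.10 (SE).

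H3 and H4, which form the central tetramer, stood apart from each other. Hist1h3a (chr13:23761885-23762386) held 20.8, 34.0, 29.0 and 22.0 normalized counts in litter A and 114, 83.5, 68.8, 27.0, 64.6 and 88.6 in litter B, a log2 difference of 1.48 ± 0.30 (SE). In contrast, Hist1h3e (chr13:23561896-23562365), the H3 member with the highest mean, held 199, 207, 184 and 179 in litter A and 119, 194 and 276 (lowest, median and highest) in litter B, a log2 difference of 0.03 ± 0.15 (SE). Of the H3 members, 12 of 12 were higher in litter B, and of the H4 members 9 of 13. The 3 abundant H4 genes were among those that were not. Hist1h4h (chr13:23531044-23531478) held 1439, 1513, 1379 and 1342 in litter A and 986, 1269 and 1787 (lowest, median and highest) in litter B, a log2 difference of -0.11 ± 0.10 (SE). Those of Hist1h4d and Hist1h4c were -0.14 ± 0.09 (SE) and -0.15 ± 0.11 (SE), and that of Hist4h4, the one member on chromosome 6, was -0.16 ± 0.14 (SE).

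A pair of litter B hearts stood apart from the rest of their litter. Over the 62 fitted intervals, control 3 was the highest heart in 59. The lowest heart was iSOD2 5 in 19, iSOD2 8 in 17 and iSOD2 7 in 14, the last 2 from litter A. iSOD2 5 was at or below the highest litter A heart in 54. For controls 4 and 6 and iSOD2 9 and 10 this held in 15 to 17 intervals, and for control 3 in 2. The litter of iSOD2 5 was taken from its label.

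Whether embryonic Sod2 knockdown had left a difference in the same genes was next tested, which the choice of members had not used. The sign was nearly uniform, and no member passed in the fit on genotype alone. With litter as a covariate 1 did (Hist1h4d), where 3.44% of all genes were called. 64 of 67 fitted members were lower in iSOD2 hearts, with a median log2 difference of −0.40 (−0.00 over all genes fitted). In DESeq2, 0 of 28 members with an adjusted p were called at adjusted p ≤ 0.05 with an absolute log2 difference over 0.25, where 2.96% of all genes were. The other 39 fitted members received no adjusted p, since DESeq2 sets aside genes of low mean. At an unadjusted p under 0.05 there were 12 members, all lower in iSOD2 hearts, where 13.2% of all genes passed. By edgeR 8 members had an unadjusted p under 0.05 and 0 were called. It also called 0 of all 17728 genes, so nothing is read from that count. No member kept the 5 iSOD2 hearts all below the 5 controls (1.67% of all genes) or all above them (2.1%).

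The lowest adjusted p values were those of Hist1h1e and Hist1h4d. Hist1h1e, which encodes H1.4 (chr13:23621777-23622558), held 1281, 1284, 1551, 942 and 987 normalized counts in controls (1, 2, 3, 4 and 6) and 647, 929, 890.2, 995 and 1077 in iSOD2 hearts (5, 7, 8, 9 and 10). Its log2 difference was -0.41 ± 0.15 (SE), with an adjusted p of 0.0633 in DESeq2. Of these iSOD2 hearts, 3 lay below every control and the others above controls 4 and 6. Hist1h4d (chr13:23581602-23581969) held 1095, 1155, 1256, 903 and 1078 in controls and 748, 1024, 957, 949 and 858 in iSOD2 hearts, a log2 difference of -0.27 ± 0.10 (SE) (DESeq2 adjusted p = 0.074). With litter as a covariate its difference was −0.28 and it was called lower in iSOD2 hearts (DESeq2 adjusted p = 0.0383). Next came Hist2h2ac at −0.28 ± 0.11 (SE) (DESeq2 adjusted p = 0.113) and Hist2h4 at −0.29 ± 0.12 (SE) (DESeq2 adjusted p = 0.123), both picked with their values known. For Hist1h4c the log2 difference was -0.29 ± 0.12 (SE) (DESeq2 adjusted p = 0.128) and for Hist1h4h -0.24 ± 0.11 (SE) (DESeq2 adjusted p = 0.173). Hist1h2bc differed from these, at 0.14 ± 0.10 (SE) (DESeq2 adjusted p = 0.471).

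The same 2 hearts carried much of the sum. The 64 intervals summed to 14591 ± 3419 (SD, n = 5) normalized counts in controls. In iSOD2 hearts the sum was 11886 ± 1985 (SD, n = 5), a log2 difference of −0.30, which was −0.14 without control 3, −0.22 without iSOD2 5 and −0.06 without both, a pair left out after the values were seen. Within litter A the log2 difference was −0.19 and within litter B −0.36, or 0.04 in litter B without both hearts. By member, 56 of 67 were lower in iSOD2 hearts within litter A (median −0.19) and 63 of 67 within litter B (median −0.48). Without control 3 and iSOD2 5, 50 of 67 were lower, with a median of −0.06.

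**Figure D4:**
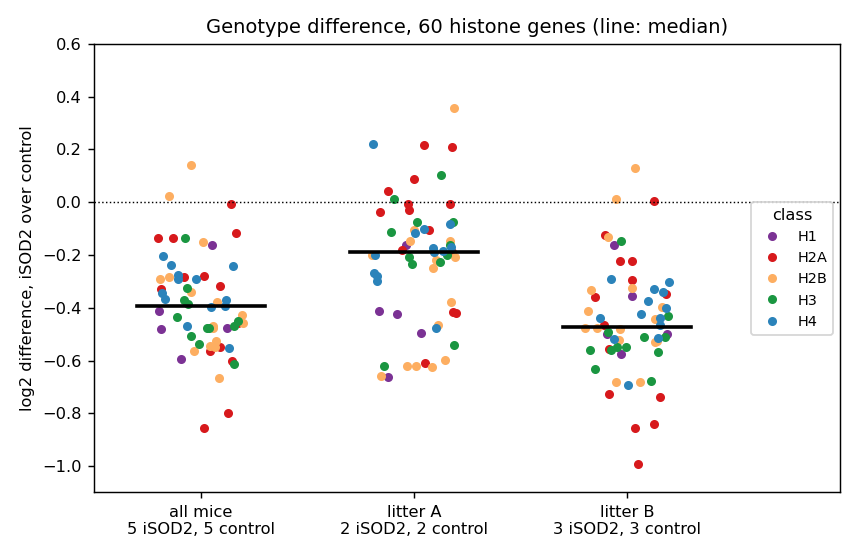
Log2 difference of iSOD2 over control hearts (vertical axis) for the 60 members averaging 20 or more normalized counts, over all mice and within litters A and B (horizontal axis), colored by histone class; horizontal lines are medians (−0.40, −0.19 and −0.47). Most points lie below zero in each column, and no member was called.

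Length was examined beside this, since the members are short. Among 600 other genes of 300 to 700 bp, 28.5% were lower in iSOD2 hearts and the median log2 difference was 0.14, opposite in sign to the −0.41 of the 56 members of that length. When each library's trend with exon length was removed, 6 members were called lower in iSOD2 hearts, where 1.23% of all genes were called in either direction. In that fit 65 of 67 members were lower, with a median of −0.57. The 6 called were Hist1h4d (−0.46), Hist2h4 (−0.47), Hist2h2ac (−0.46), Hist1h4c (−0.48), Hist1h1e (−0.56) and Hist1h4h (−0.42), and their adjusted p in DESeq2 ran from 0.00896 to 0.0418. The genotype calls of the set therefore depended on this step.

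Neither sex, in the fit with genotype, nor the genotype-by-litter product gave a call. For females against males with genotype as covariate, 0 of 66 members were called in DESeq2 (0.483% of all genes), 7 had an unadjusted p under 0.05, all lower in females, and the lowest adjusted p was 0.19 (Hist1h4c, log2 difference -0.29). By edgeR 0 were called (0.164% of all genes were) and 7 passed unadjusted. In the DESeq2 fit 56 of 67 members were lower in females, with a median log2 difference of −0.10. With litter as a further covariate 63 of 67 were lower, with a median of −0.39. In that fit 1 was called, the pseudogene Hist1h2al (0.344% of all genes were). With genotype as the only covariate and control 3 left out, 48 of 67 were higher in females. The genotype difference was not shown to differ between litters for any of 67 members in DESeq2 (0.00564% of all genes did), 1 had an unadjusted p under 0.05, and edgeR gave 0 and 0.

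The genes that act with histones were then read on the litter contrast. Of 25 genes for S phase and proliferation, 25 were higher in litter B, with a median log2 difference of 0.57. By DESeq2 14 were called higher (2.52% of all genes were) and 0 lower (0.977% of all genes were). Mki67, a marker of cycling cells, held 259, 328, 311 and 299 normalized counts in litter A and 1312, 925, 811, 466, 934 and 752 in litter B, a log2 difference of 1.51 ± 0.25 (SE). The replication clamp Pcna (0.18 ± 0.08 (SE)) and the ribonucleotide reductase subunit Rrm1 (0.20 ± 0.10 (SE)) were not called. Summed over the list, litter A held 2853, 2919.8, 2994 and 3313 and litter B 6064, 5062, 4247, 3546, 4709 and 4551 normalized counts. Control 3 was again highest and iSOD2 5 again the lowest of litter B, as for the 57 less abundant histone intervals. Both lists were chosen with these litter differences known, and the part of proliferating cells in the histone values was not tested.

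**Figure D5:**
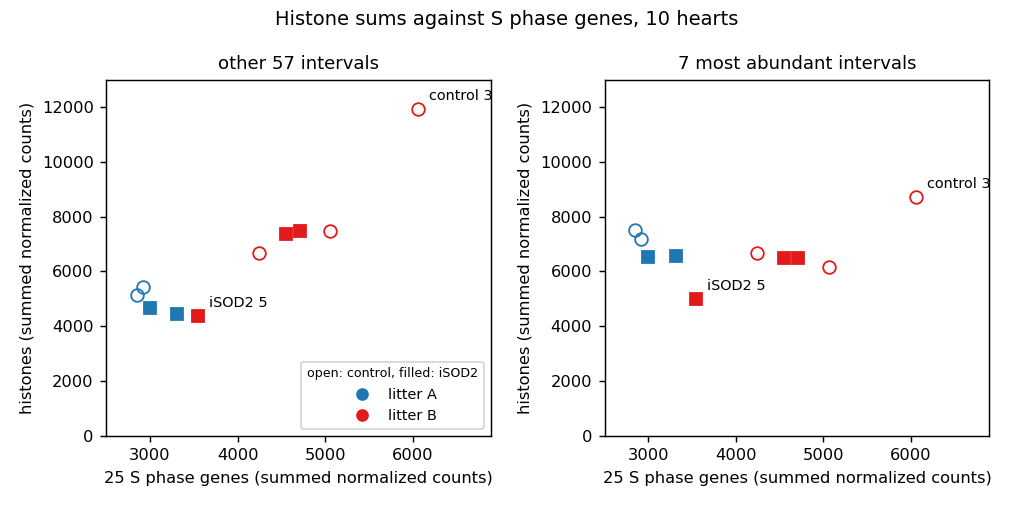
Summed normalized counts of the 57 less abundant and of the 7 abundant histone intervals (vertical axes, from 0) against the summed normalized counts of 25 S phase and proliferation genes (horizontal axes) in the 10 hearts, with blue for litter A, red for litter B, open for controls and filled for iSOD2. In the left panel control 3 is the highest heart and iSOD2 5 the lowest of litter B on both axes, and in the right panel the litters overlap in histone counts.

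Partner genes outside the cell cycle list differed less. Of 22 genes that transcribe, process or degrade histone mRNAs, 0 were called in either direction between litters (median 0.07), among them Sympk, a scaffold of the cleavage complex (-0.14 ± 0.04 (SE)), Zcchc6, a terminal uridylyltransferase (0.06 ± 0.06 (SE)), and Pou2f1, which binds octamers (-0.03 ± 0.08 (SE)). Of 11 replacement and variant histones 0 were called (median 0.06). H3f3a, one of the genes for H3.3, was at 0.06 ± 0.06 (SE), H1f0 at -0.02 ± 0.06 (SE) and H3f3b, the other H3.3 gene, at -0.23 ± 0.05 (SE). H3f3b was under the fold threshold but had a DESeq2 adjusted p of 0.000907, with every litter B heart below every litter A heart. Of 11 chaperones 1 was called higher, Chaf1b, a subunit of the assembly factor CAF-1, at 1.37 ± 0.34 (SE), which was named after its value was seen, while Atrx (-0.06 ± 0.07 (SE)), Set (-0.06 ± 0.06 (SE)) and Npm1 (0.01 ± 0.06 (SE)) were not. Between genotypes, 0 genes of these lists or of the S phase list were called in DESeq2 (2.96% of all genes were). An adjusted p was given to 17 of the 22 genes, 8 of the 11 histones, 8 of the 11 chaperones and 10 of the 25 S phase genes. Of those 25 genes 1 was higher in iSOD2 hearts, with a median log2 difference of −0.07 over the list. H3f3a was at 0.18 ± 0.06 (SE) and Npm1 at 0.20 ± 0.05 (SE), both under the fold threshold.

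Other measures were set beside the differences between litters and genotypes. A list meant to hold RNAs without a poly(A) tail took in all rows named Snord, Snora, Scarna, Rnu or Mir. Precursor and host transcripts, which can be polyadenylated, were not kept apart from these. Of the 507 fitted rows of that list, none passed as higher in litter B and 3 as lower (DESeq2), with a median of −0.06. Rpph1, the RNA of RNase P, was at -0.26 ± 0.09 (SE), Rmrp at -0.25 ± 0.10 (SE) and Snora74a at -0.30 ± 0.09 (SE). The 6 erythroid genes, led by Hba-a1, Hba-a2 and Hbb-bs, summed to between 57506 and 69944 normalized counts in litter A and between 58480.4 and 120409 in litter B. Control 3 (120409) was highest and iSOD2 5 (58480.4) lowest of litter B there too. The spacing differed from that of the less abundant histone intervals, where control 3 held 11946 normalized counts and control 6 held 6686. In the erythroid sum control 6 (118059) was close to control 3. Control 4 (62576) and iSOD2 9 (63812) were close to iSOD2 5 in that sum. Of the 6 erythroid genes, 0 were called. By genotype these genes summed to between 60930.5 and 120409 in controls and between 57506 and 83411 in iSOD2 hearts, and 0 of 6 were higher in iSOD2 hearts (median log2 difference −0.41). The 5 hepatocyte genes, led by Alb, summed to between 74.2 and 8183 in controls and between 4065 and 17052 in iSOD2 hearts, with 5 of 5 higher in iSOD2 hearts (median 1.18) and 5 of 5 higher in litter B (median 1.14). The 4 atrial cardiomyocyte genes summed to between 517 and 2123 in controls and between 634 and 7655 in iSOD2 hearts, with 4 of 4 higher in iSOD2 hearts (median 3.10), and between litters 1 of them was called lower in litter B. None of these 15 genes was called between genotypes in DESeq2. An adjusted p was given to 5 of 6 erythroid, 5 of 5 hepatocyte and only 1 of 4 atrial genes, so the other atrial genes could not be called. The 8 detected thymus and T cell genes summed to at most 71.2 and the 4 B cell genes to at most 100.4 in any heart. The part of any of these in the histone values was not tested. Between the first and last Hist1 member, 11 other genes were fitted, and 0 were called between litters (median 0.11).

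The promoters were compared last, since histone genes of a class often share promoter motifs. RefSeq (GRCm38.p6) held 63 promoters for 62 members, and the 250 bases before each start were searched on both strands for the CCAAT box (CCAAT), for a TATA box (TATAAA) and for the octamer (ATTTGCAT). None of these contains another. CCAAT was present in 82.5% of member promoters and 33.8% of the 32851 in the table, TATAAA in 46.0% against 12.4%, and ATTTGCAT in 22.2% against 1.60%. CCAAT was present in 6 of 6 H1, 18 of 18 H2A, 17 of 17 H2B and 8 of 10 H3 promoters but in 3 of 12 of H4. ATTTGCAT was found as written in 7 H2B promoters and on the opposite strand in 7 H2A promoters. In the pairs Hist1h2bk/Hist1h2ah, Hist1h2bg/Hist1h2ae and Hist1h2ba/Hist1h2aa the windows overlapped, and the octamer was the same site read from both strands. All these shares count promoters, so overlapping windows and near-identical copies enter more than once. The first promoter below, chr13:21721794-21722043 on the plus strand, is that of the member with the largest litter difference by the rule for named genes. The other, chr13:23530794-23531043 on the plus strand, is that of the member with the most counts, and capitals mark the motifs on either strand.
Hist1h2bm: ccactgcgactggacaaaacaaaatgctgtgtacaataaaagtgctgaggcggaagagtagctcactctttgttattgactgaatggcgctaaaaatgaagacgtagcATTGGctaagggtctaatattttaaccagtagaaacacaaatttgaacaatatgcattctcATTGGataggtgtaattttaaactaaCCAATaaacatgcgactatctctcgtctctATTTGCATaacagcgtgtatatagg
Hist1h4h: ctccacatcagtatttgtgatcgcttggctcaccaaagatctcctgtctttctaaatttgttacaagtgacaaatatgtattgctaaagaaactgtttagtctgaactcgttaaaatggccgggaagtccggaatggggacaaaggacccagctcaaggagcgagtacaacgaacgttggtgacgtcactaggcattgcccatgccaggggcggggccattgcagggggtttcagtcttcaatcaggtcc
The promoter of Hist1h2bm held CCAAT and the octamer, and that of Hist1h4h held none of the 3. Counted by promoter, the median log2 litter difference was 1.01 with CCAAT (50 promoters) and 0.56 without it (11, of which 9 were H4 and 2 H3). The other 2 motifs went the other way. The median was 0.79 with TATAAA (27 promoters) and 1.02 without it (34), and 0.87 with ATTTGCAT (12) and 0.98 without it (49). Hist1h2be entered with 2 promoters, and overlapping rows entered separately. The promoters of Hist1h2ap, Hist1h4n, Hist1h2bq, Hist2h3c1 and Hist2h2aa1 lay away from the locus that gave their counts. A match is a run of letters and not a shown site, and no match says only that these letters are not in the window.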

How the data were processed

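Total RNA was depleted of ribosomal RNA and made into stranded libraries (TruSeq Stranded Total RNA Gold). Per the labels and the file headers, the authors aligned the reads with STAR to GRCm38 (mm10) and counted reads over exons with HOMER, condensed to 1 row per gene. The values are deposited as estimated counts in steps of 0.5, not normalized; the counting command names no strand, and rows that overlap on opposite strands hold near-equal counts. No poly(A) selection is stated.

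Counts were rounded for testing, genes with fewer than 10 summed counts were left out (17728 of 24537 kept), and DESeq2 1.42.0 in R 4.3.3 was fitted across all genes with median-of-ratios scaling, after the study's methods. A call needed a Benjamini-Hochberg adjusted p ≤ 0.05 over all genes and an absolute log2 difference over 0.25, and the genotype-by-litter product needed the adjusted p alone. Normalized counts are unrounded deposited counts divided by the size factors. Litter was fitted with genotype, as a description only. edgeR 4.0.16 (quasi-likelihood), other scalings and filters, covariates, a length correction and each mouse left out were alternatives. Sums count overlapping rows once. Scripts were tested on simulated data.

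The members and the comparison lists were chosen with earlier results of these data known. Named genes were the 8 members with the highest mean, the 5 largest positive and 3 most negative litter differences among those averaging 20 or more normalized counts, the highest member per class, members called between genotypes or sexes, and the 3 highest genes per list with those called between genotypes. Stem-loops came from GENCODE vM21 transcripts and promoters from RefSeq (GRCm38.p6).

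The litters and the sexes are uneven, and mice are the replicates. The total counts limit precision most for low rows, and p-values do not cover error in assigning reads among near-identical copies.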

Additional observations from a re-analysis of the deposited data

Results flagged for a closer look

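The highest or lowest heart of a group was compared with its neighbour by Dixon's criterion in 116 groups of values (sums, class sums, cluster sums and named members, by genotype and by litter). It marked 18, where chance marks about 1 in 20 groups, and the items share mice and genes. Control 3 was the highest control in the sum of all intervals (20659 normalized counts, next 13641), in H2A (3645), in H4 (6006), in Hist1 (17014) and in Hist2 (3103). It was also set apart as the highest of litter B in H2A (3645), Hist2 (3103), Hist2h2aa1 (1149.8), Hist2h2aa2 (1149) and Hist2h2ab (38.2). iSOD2 5 was the lowest iSOD2 heart in the abundant intervals (4980.0, next 6487), in H4 (3126) and in the single genes Hist1h1c (868), Hist2h2aa1 (729.6), Hist1h4c (494) and Hist1h3e (119). In litter A, control 2 was the highest heart for Hist1h1b (106) and iSOD2 7 the lowest for Hist2h2be (188). The report gives the sum of all intervals with and without these 2 hearts. Without control 3 the log2 litter difference was 0.12 in H2A, −0.09 in H4, 0.13 in Hist1 and 0.05 in Hist2 (0.27, 0.02, 0.28 and 0.16 with all mice).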

How the results depend on the processing

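The count of members called between genotypes was 0 and stayed at 0 with TMM size factors, with either count filter, with no fold threshold and with sex as a covariate. In those fits 2.02% to 6.09% of all genes were called. It was also 0 with edgeR, which called 0 of all 17728 genes and so could show nothing particular to the members. The member count was 6 with the exon length trend removed (1.23% of all genes) and 1, Hist1h4d, with litter as a covariate (3.44% of all genes). Leaving out 1 mouse gave 0 to 3: 3 without control 4 (Hist1h4c, Hist1h1e and Hist1h4d) and 1 without control 2 (Hist2h4), control 6 (Hist1h1e), iSOD2 7 (Hist1h4d) or iSOD2 10 (Hist1h1e). All of these member calls were lower in iSOD2 hearts, and the cause was not tested. Over all genes the share called ran from 1.21% (without control 3) to 4.83% (without control 4) when 1 mouse was left out. Members called between sexes were 0, and 1 with litter as a further covariate (Hist1h2al), with 0 to 2 when 1 mouse was left out (2 without iSOD2 10, Hist1h2al and Hist1h1e). The share over all genes was 0.483% in the main fit, 0.344% with litter as a further covariate and 0.382% without iSOD2 10. The 33 members called between litters were 21 with edgeR and 18 to 43 when 1 mouse was left out, the lowest without control 1 and the highest without iSOD2 5. The genotype-by-litter count was 0 in each alternative run. The summed litter difference was 0.25, with 0.11 (without control 3) to 0.34 when 1 mouse was left out, 0.51 in males (0.20 without control 3) and 0.79 as the median over members. The summed genotype difference was −0.30, with −0.36 to −0.14 when 1 mouse was left out (−0.14 without control 3) and −0.06 without control 3 and iSOD2 5, an alternative added after the data were seen. The direction of both sums was kept in each of these alternatives, but the genotype difference was −0.00836 in males without control 3 and, within litter B without control 3 and iSOD2 5, 0.04. The labels pair no single mice, since no replicate number is shared between the groups. Each litter held both genotypes, and the fit with litter as a covariate used that matching.

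Depth limited the lowest rows, and 39 of 67 fitted members received no adjusted p between genotypes.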

Other observations

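Summed by class, the litter difference was greatest for H3. H3 intervals held 835 ± 86.3 (SD, n = 4) normalized counts in litter A and 1444 ± 517 (SD, n = 6) in litter B, a log2 difference of 0.79. It was 0.59 in H2B, 0.27 in H2A, 0.10 in H1 and 0.02 in H4, and these were not tested, since the genes were chosen on this contrast. Without iSOD2 5 the values were 0.92 in H3, 0.69 in H2B, 0.36 in H2A, 0.20 in H1 and 0.10 in H4. Without control 3 they were 0.59 in H3, 0.45 in H2B, 0.12 in H2A, −0.05 in H1 and −0.09 in H4, so the sign of H1 and H4 rested on that heart. Between genotypes the class sums differed by −0.44 in H3, −0.32 in H1, −0.29 in H4, −0.26 in H2B and −0.23 in H2A on the log2 scale. Without control 3 these were −0.16 in H3, −0.18 in H1, −0.20 in H4, −0.04 in H2B and −0.05 in H2A.

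Inside the Hist1 block, the 4 phosphate transporter genes Slc17a1, Slc17a2, Slc17a3 and Slc17a4, picked after their values were seen, had means of only 1.90, 14.1, 4.25 and 4.13 normalized counts. Their log2 litter differences were 2.54, 0.86, 1.69 and 0.85 and their log2 genotype differences 1.42, 1.49, 1.63 and 1.47, with SEs for litter of 0.55 to 1.27, and none was called between litters in DESeq2. The 3 other genes of the block that averaged 20 or more normalized counts, Abt1, Hfe and Zfp322a, had log2 litter differences of 0.02, 0.11 and −0.02.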
